A study of Caenorhabditis elegans with 4 samples.

Results

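The transthyretin-like genes of the nematode Caenorhabditis elegans form a large family whose members carry ttr symbols. Members were the protein-coding genes with a ttr symbol and number in the WBcel235 annotation, without ttr-39, which gave 57 genes. Of these, 53 had values in the deposited table, out of 17958 protein-coding genes and 41602 genes of all kinds. For ttr-16, ttr-47, ttr-52 and ttr-54 no transcript accession matched, and they were not analysed here. Transcript levels were measured by RNA-seq in whole larvae that carry the dve-1 allele uf171, with 2 libraries, and in wild type larvae, with 2 libraries. The DVE-1 protein has a homeodomain and is known for its part in the response of worms to unfolded proteins in mitochondria. All 4 libraries came from animals grown at 25 °C on Escherichia coli OP50, about 1200 larvae each per the protocol, and both genotypes are labelled L4, the last larval stage, although the protocol speaks of L1 larvae. Separate cultures are not mentioned for the 2 libraries of a genotype, so the p-values refer to the spread among these libraries alone, which may be technical.

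Vertebrate transthyretin is a blood protein that carries thyroid hormone and retinol-binding protein. The nematode ttr genes encode a separate, nematode-rich family of small proteins with a transthyretin-like domain, most of which are predicted to be secreted. The best known in C. elegans is TTR-52, which bridges phosphatidylserine on dying cells and the engulfment receptor CED-1, and TTR-33 is known to protect dopaminergic neurons of the worm from oxidative stress. For most of the others no role is established.

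Depth was read from the spacing of the lowest values and came to about 14300000 and 14100000 fragments in dve-1 mutant replicates 1 and 2 and about 14900000 and 15300000 in wild type replicates 1 and 2. FPKM are fragments divided by transcript length and by the number mapped in the library, so levels can be set against each other between genes. dve-1 itself had 22.98 and 21.13 FPKM in the dve-1 mutant and 14.19 and 13.87 FPKM in wild type, and since what uf171 changes is not given in the labels, this level is no check of the genotype labels.

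As a family the ttr genes were well expressed. The median over members of the mean level in the 4 libraries was 53.4 FPKM, against 11.3 FPKM over all protein-coding genes. A mean of 100 FPKM or more was reached by 18 of 53 members (34.0%), against 10.2% of protein-coding genes. A further 23 members lay between 10 and 100 FPKM, 10 lay between 1 and 10 FPKM, and 2 lay under 1 FPKM. Summed over members the family stood at 6880 and 5330 FPKM in replicates 1 and 2 of the dve-1 mutant and at 6153 and 6542 FPKM in those of wild type. The summed levels of the genotypes overlapped, with both the highest and the lowest sum in the mutant.

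A few members carried much of that sum. ttr-15 (T07C4.5; chromosome III, 10337847 to 10339440, plus strand) had 1933 and 1047 FPKM in the dve-1 mutant and 1052 and 1200.2 FPKM in wild type. ttr-18 (B0334.1; chromosome II, 11485510 to 11486748, minus strand) read 1063 and 551 FPKM in the mutant and 847 and 1064 FPKM in wild type. For both genes 1 mutant library stood apart from the other mutant library, and the genotypes overlapped. Together they made up 43.6% and 30.0% of the family sum in the mutant libraries and 30.9% and 34.6% in the wild type libraries. Without them the sum was 3883 and 3733 FPKM in the mutant and 4254 and 4277 FPKM in wild type. The rest of the family thus summed lower in both mutant libraries, a comparison made after the values were seen and not tested. The library totals over all transcripts differed too, at 2841244 and 3072181 FPKM in mutant replicates 1 and 2. In those of wild type they were 3080293 and 2998086 FPKM. The family sums were not scaled to these totals, and the lower total of mutant replicate 1 enters its sum.

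The next members by level were ttr-2, ttr-41, ttr-24, ttr-6, ttr-26, ttr-31, ttr-46 and ttr-51. ttr-2 read 430.0 and 317 FPKM in the mutant and 331 and 405 FPKM in wild type. ttr-41 read 333 and 291 FPKM in the mutant and 315 and 375 FPKM in wild type. In both the genotypes overlapped. ttr-31 read 272 and 159.7 FPKM in the mutant and 155 and 235 FPKM in wild type. ttr-46 was the steadiest member, at 179.2 and 179.4 FPKM in the mutant and 168 and 185 FPKM in wild type, with 1.10 times between its lowest and highest library. At the other end, ttr-19 was listed at 0 in all 4 libraries. ttr-42 was listed at 0 in replicate 1 of both genotypes and read 1.05 FPKM in mutant replicate 2 and 0.72 FPKM in wild type replicate 2, which corresponds to about 7.1 and 5.3 fragments.

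**Figure D1:**
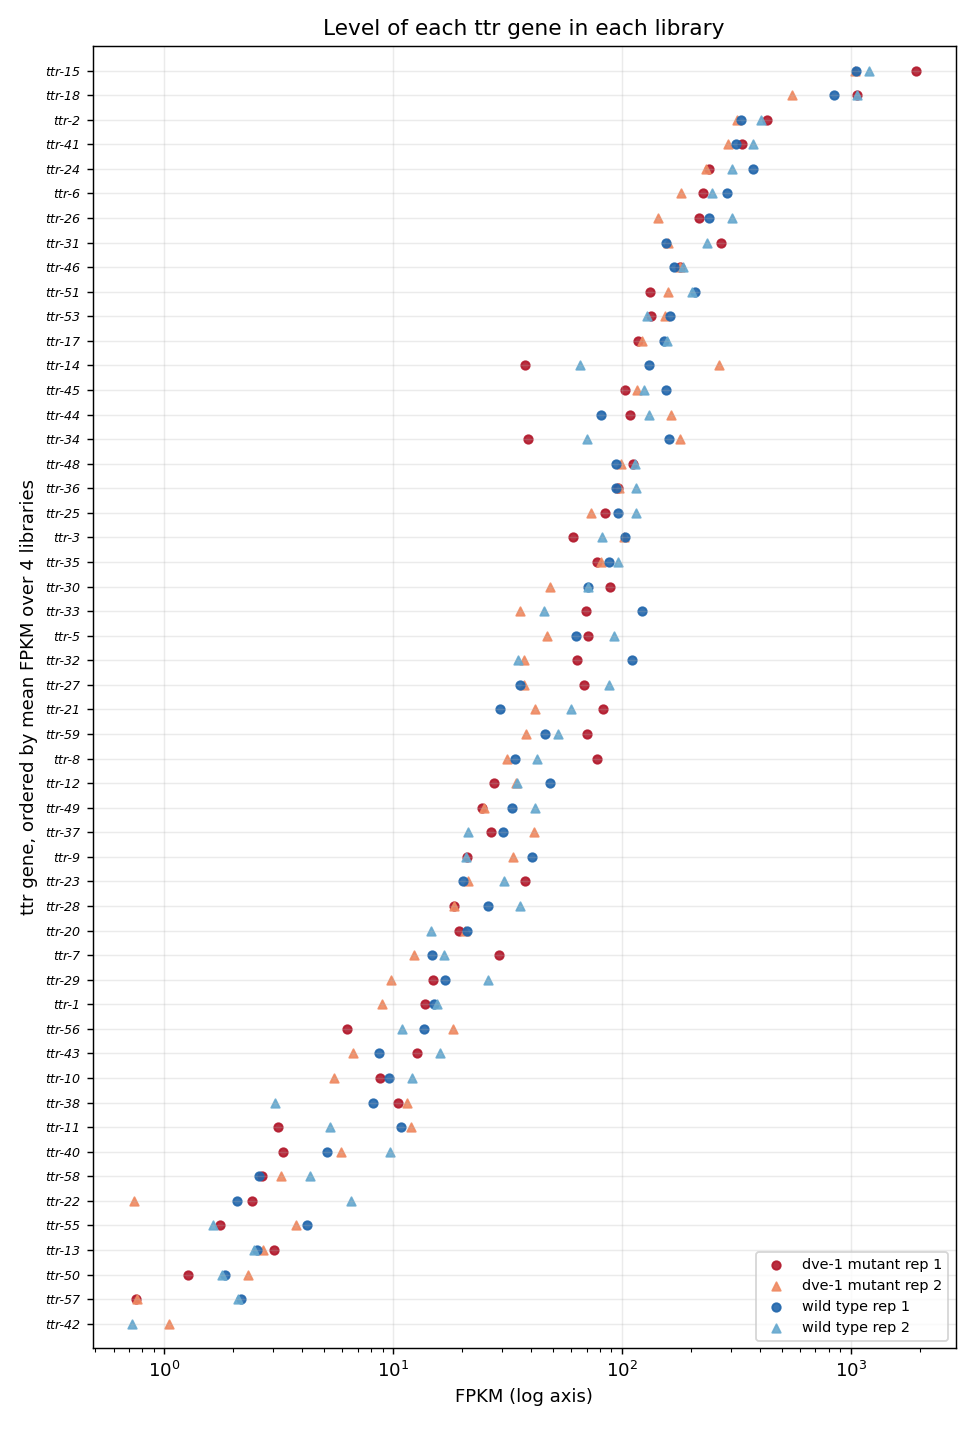
Level of each ttr gene in each library in FPKM on a log axis, with 1 row per gene ordered by its mean, circles for replicate 1 and triangles for replicate 2, red for the dve-1 mutant and blue for wild type. ttr-19 and single values listed at 0 are not drawn. Levels run from about 1 FPKM to 1933 FPKM for ttr-15, and for most genes red and blue symbols intermingle.

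The family is alike in gene structure and unevenly placed in the genome. The main transcript had 2 to 9 exons with a median of 3, and 38 of 53 predicted proteins were 130 to 150 residues long, with a median of 143. The outlier was ttr-14, with 9 exons and 406 residues, while ttr-57 had the shortest protein, at 89 residues. Chromosome V held 21 members, chromosome X 12, chromosome III 8, chromosome IV 7, chromosome I 3 and chromosome II 2. Of the 53 members, 25 lay within 10000 bases of another member, in 5 clusters of 3 and 5 clusters of 2. The spread of mean levels within a cluster varied: in the cluster on chromosome III (9925459 to 9930413) ttr-2 averaged 27.8 times the level of ttr-1, and in the cluster of ttr-11, ttr-57 and ttr-12 on chromosome V (20603314 to 20608788) ttr-12 averaged 25.2 times the level of ttr-57. The levels of ttr-36 and ttr-35, neighbours on chromosome X, differed by 1.18 times, and those of the other pairs were 1.33 times apart for ttr-8 and ttr-32, 1.35 times for ttr-59 and ttr-30, 1.41 times for ttr-51 and ttr-45 and 5.16 times for ttr-40 and ttr-49. On chromosome I the whole cluster was low, with means of 2.84 to 12.3 FPKM. Of the 53 members, 14 overlapped another protein-coding gene, 11 of them a gene on the other strand. Among the 14 were ttr-13, ttr-32, ttr-44 and ttr-56, besides others named below.

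The comparison between genotypes asked which members differed in dve-1 mutant larvae. None passed the threshold of an adjusted p under 0.05 (limma, Benjamini-Hochberg adjustment over 14652 genes), with 51 of 53 members tested. The smallest limma adjusted p was 0.815, for ttr-57, which entered the test only through the wild type libraries. Next came 0.933, for ttr-51. Over all genes tested 19 passed (0.13%). At an unadjusted p under 0.05 (limma) there were 6 members (11.8% of those tested), ttr-57 among them, against 674 of all genes tested (4.6%). All 6 were lower in the mutant by sign, as were 373 of the 674 genes (2.55% of all genes tested). Only 2 members lay under that p once values were median-centred or quantile normalized. By sign 35 of 51 tested members were lower and 16 higher (68.6% lower), against 53.8% lower over all genes tested. The median log2 fold change of the members was -0.16, against -0.02 over all genes, each taken as mutant minus wild type in units of log2(FPKM + 1). Values ran from -0.99 for ttr-22, at about 4.9 to 47.0 fragments per library, to 0.97 for ttr-38, and 39 of 51 lay within 0.5 of 0.

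Both mutant libraries lay below both wild type libraries for 15 of 51 tested members (29.4%), against 16.2% of all genes tested. Both lay above for 2 of 51 (3.9%), against 11.9% of all genes. The 15 were ttr-1, ttr-6, ttr-10, ttr-12, ttr-17, ttr-24, ttr-25, ttr-26, ttr-28, ttr-29, ttr-35, ttr-45, ttr-49, ttr-51 and ttr-57, and the 2 were ttr-13 and ttr-38. These counts are descriptions, since members were chosen with results of these data known and ttr-57 passed the filter on low values only through the wild type libraries. In whole larvae, fewer cells of a type and less RNA per cell cannot be told apart. Markers of hypodermis and molt were also mostly lower by sign: 16 of 17 tested were lower and 1 higher, with a median log2 fold change of -0.56, and 0 passed alone. For 10 of the 17 both mutant libraries lay below both wild type libraries, against 16.2% of all genes tested. The 1 higher was col-19, at 8.51 and 397 FPKM in the mutant and 14.2 and 36.0 FPKM in wild type. The summed level of the 17 markers was 3997 and 3565 FPKM in the mutant and 5481 and 5604 FPKM in wild type, none of them at 0 in all libraries. The full ttr sum was highest in mutant replicate 1, where the marker sum lay below both wild type libraries. Without ttr-15 and ttr-18 the ttr sum was 3883 and 3733 FPKM in the mutant and 4254 and 4277 FPKM in wild type. That reduced sum was formed after the values were seen, so its order of libraries is not set against that of the marker sum. None of these sums was scaled to the total of its library. The part of these markers in the ttr values was not tested.

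**Figure D2:**
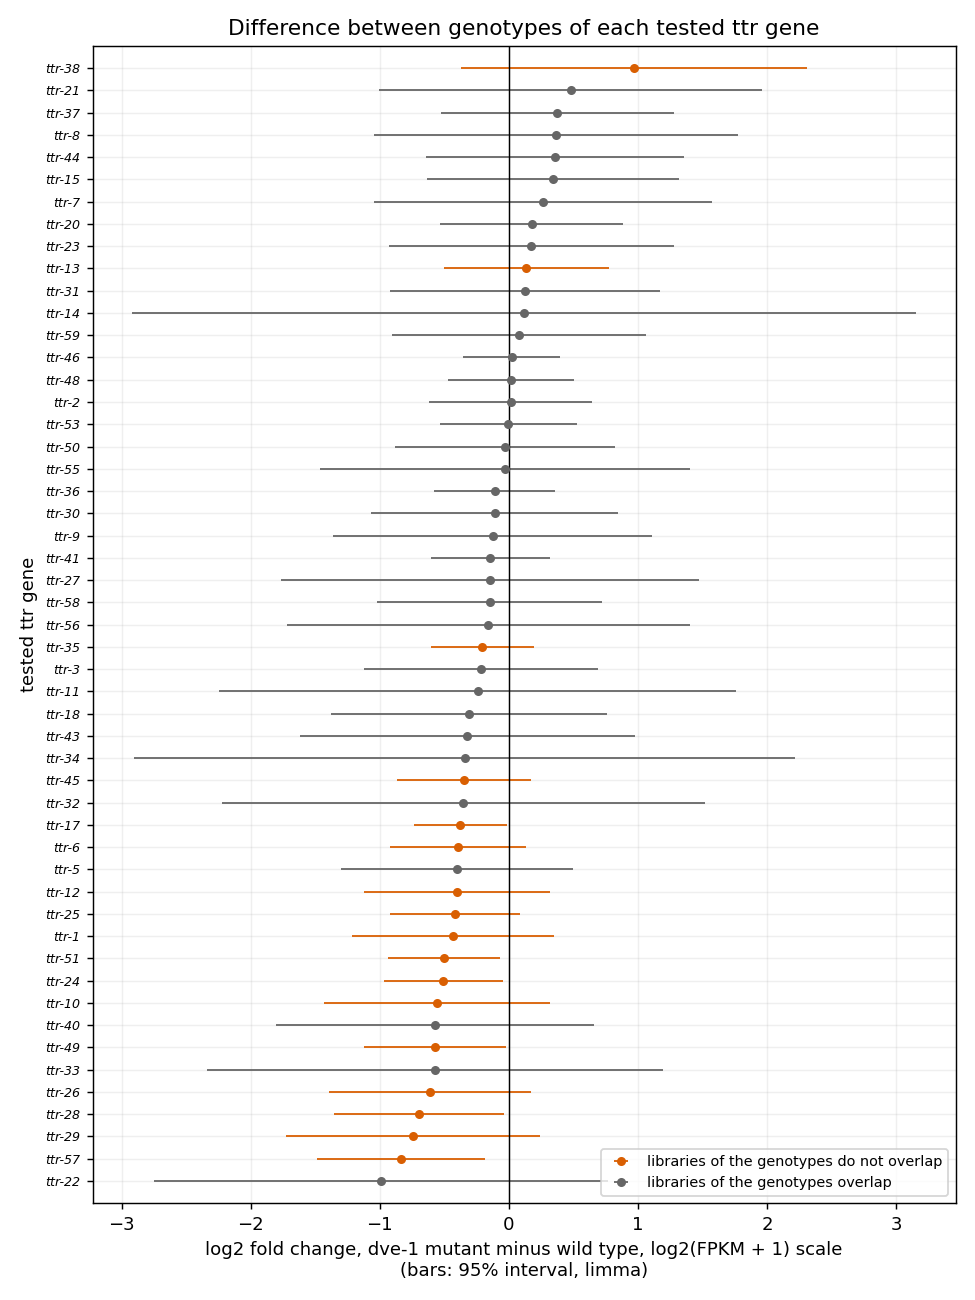
Log2 fold change of each of the 51 tested ttr genes, in units of log2(FPKM + 1) and as mutant minus wild type, as points with 95% intervals from limma, in order of size. Orange marks genes whose libraries do not overlap between genotypes. Of the 17 orange genes 15 lie left of 0, and no gene passed the adjusted threshold.

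Among the members with the smallest p, all of the first 8 were lower in the mutant by sign, and none passed. ttr-57 (F46B3.18; chromosome V, 20605105 to 20606447, plus strand) had 0.75 and 0.76 FPKM in the dve-1 mutant and 2.17 and 2.10 FPKM in wild type. The libraries of each genotype lay close together and far from the other genotype, yet the values rest on few fragments, at the estimated depth about 6.5 in each mutant library and 19.5 in each wild type library. Its log2 fold change was -0.84 (SE 0.23, 95% interval -1.49 to -0.19, limma adjusted p = 0.815). Both mutant libraries lay under the filter of 1 FPKM, so it entered the test only through the genotype where it is high, and its p and interval are therefore given as a description. The gene overlaps F46B3.23 on the other strand, and the strandedness of the libraries is not given in the sources used here, so reads of the pair cannot be told apart.

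The abundant gene ttr-51 (JC8.8; chromosome IV, 13250655 to 13252311, minus strand) rested on far more fragments. It read 133 and 159 FPKM in the mutant and 209 and 203 FPKM in wild type, and the genotypes did not overlap. The means were 146 ± 18.4 and 206.0 ± 4.32 FPKM (SD, n = 2 each), a ratio of 0.708. The log2 fold change was -0.50 (SE 0.15, 95% interval -0.94 to -0.07, limma adjusted p = 0.933). Like ttr-57, it overlaps a gene on the other strand, JC8.7.

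ttr-17 (Y5F2A.2; chromosome IV, 11066019 to 11067026, minus strand) had replicates that lay close together in both genotypes. It read 117 and 122 FPKM in the mutant and 153 and 158 FPKM in wild type, means of 119.5 ± 3.38 and 155 ± 3.41 FPKM (SD, n = 2 each). Its log2 fold change of -0.38 (95% interval -0.74 to -0.01) had a limma adjusted p of 0.9995. ttr-49 (E02C12.13; chromosome V, 9355505 to 9356515, minus strand) read 24.4 and 25.0 FPKM in the mutant and 33.2 and 41.8 FPKM in wild type, with a log2 fold change of -0.57 (95% interval -1.13 to -0.02). In both genes the mutant libraries nearly coincided and lay under wild type.

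The cluster of ttr-24, ttr-25 and ttr-26 (chromosome V, 18555387 to 18560288) had all 3 members lower without overlap. ttr-24 read 240.0 and 233 FPKM in the mutant and 375 and 303 FPKM in wild type (log2 fold change -0.51, limma adjusted p = 0.971). Here the sum hides an uneven split: 1 of its 2 transcripts read 143.8 FPKM in wild type replicate 1 and was listed at 0 in the other 3 libraries. The other transcript read 240.0 and 233 FPKM in the mutant and 232 and 303 FPKM in wild type, where the genotypes overlapped, and its log2 difference was -0.16. ttr-25 read 84.3 and 73.1 FPKM in the mutant and 95.8 and 115 FPKM in wild type (log2 fold change -0.42), all on 1 of its 2 transcripts. ttr-26 read 217 and 143.0 FPKM in the mutant and 239.6 and 304 FPKM in wild type (log2 fold change -0.61). For ttr-26 the gap between the mutant libraries was about as wide as that between the genotypes.

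In the cluster of ttr-27, ttr-28 and ttr-29 (chromosome V, 12903550 to 12906832, all on the minus strand) 2 of the 3 members did not overlap between genotypes. ttr-28 read 18.5 and 18.4 FPKM in the mutant and 25.9 and 35.9 FPKM in wild type (log2 fold change -0.70, 95% interval -1.35 to -0.04, limma adjusted p = 0.9995). ttr-29 read 14.9 and 9.77 FPKM in the mutant and 16.8 and 26.1 FPKM in wild type (log2 fold change -0.74). ttr-27 read 68.5 and 37.2 FPKM in the mutant and 35.7 and 87.7 FPKM in wild type, so the genotypes overlapped fully (log2 fold change -0.15). ttr-6 on chromosome X, among the most abundant members, also lacked overlap and read 227 and 181 FPKM in the mutant and 288 and 247 FPKM in wild type (log2 fold change -0.40).

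Members that were higher in the mutant by sign differed less clearly. ttr-38 (F35G8.2; chromosome X, 9312515 to 9314497, minus strand) read 10.5 and 11.5 FPKM in the mutant and 8.21 and 3.04 FPKM in wild type. Its libraries did not overlap, but the wild type libraries differed by 2.70 times, and its log2 fold change of 0.97 had a 95% interval of -0.37 to 2.31 (limma adjusted p = 0.9995). ttr-37 read 26.9 and 41.2 FPKM in the mutant and 30.3 and 21.3 FPKM in wild type (log2 fold change 0.38). ttr-44 read 108 and 163 FPKM in the mutant and 81.1 and 132 FPKM in wild type (log2 fold change 0.36). It overlaps R11G10.3 on the other strand, and only 1 of its 2 annotated transcripts had values. With 1 library left out the log2 fold change ran from 0.38 to 1.57 for ttr-38, from 0.08 to 0.67 for ttr-37 and from 0.01 to 0.70 for ttr-44. For ttr-37, ttr-44 and ttr-15, whose log2 fold change was 0.34 (95% interval -0.63 to 1.31), the genotypes overlapped. ttr-13, the other member above both wild type libraries, read 3.02 and 2.69 FPKM in the mutant and 2.55 and 2.47 FPKM in wild type, a log2 fold change of 0.13.

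For most members at least 1 genotype had a gap between its replicates that was wider than the difference between genotypes. The median absolute gap between the mutant libraries was 0.59 on the log2 scale for the tested members, against 0.33 for all genes tested, and between the wild type libraries it was 0.34, against 0.30. The median absolute log2 fold change between genotypes was 0.34 for members and 0.18 for all genes. The difference between genotypes exceeded both replicate gaps for 13 of 51 members (25.5%) and for 18.4% of all genes. The ratio of the highest to the lowest library ran from 1.10 for ttr-46 to 8.88 for ttr-22, with a median of 1.86. The low gene ttr-22 read 2.40 and 0.73 FPKM in the mutant and 2.09 and 6.52 FPKM in wild type.

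The widest gap was that of ttr-14 (T05A10.3; chromosome X, 10787503 to 10789700, plus strand), the longest protein of the family. It read 37.7 and 266 FPKM in dve-1 mutant replicates 1 and 2 and 132 and 65.3 FPKM in those of wild type, so the highest and the lowest library were both mutant. Its log2 fold change was 0.12, with a 95% interval of -2.92 to 3.16. The gene overlaps vap-2 on the other strand. ttr-34 (F09A5.9; chromosome X, 13139793 to 13140886, plus strand) had the same order of libraries, with 38.7 and 180.0 FPKM in the mutant and 161 and 70.3 FPKM in wild type (log2 fold change -0.34, 95% interval -2.90 to 2.22). ttr-11 and ttr-56 ran the same way at lower levels: ttr-11 read 3.13 and 11.9 FPKM in the mutant and 10.9 and 5.30 FPKM in wild type. ttr-56 read 6.26 and 18.3 FPKM in the mutant and 13.6 and 10.98 FPKM in wild type. All 4 genes were highest in mutant replicate 2 and lowest in mutant replicate 1.

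The 3 transcripts of ttr-11 split its level differently between libraries. The first read 1.39 and 6.93 FPKM in the mutant and 1.74 and 1.38 FPKM in wild type. The second was listed at 0 in mutant replicate 1 and read 2.64 FPKM in mutant replicate 2, and 9.12 and 3.92 FPKM in wild type. The third read 1.74 and 2.36 FPKM in the mutant and was listed at 0 in wild type. An exact 0 can be a failed estimate in this table, and the whole gene rests on about 19.5 to 73.1 fragments per library.

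ttr-33, the gene with a known role in dopaminergic neurons (C37C3.13; chromosome V, 7837093 to 7837909, minus strand), followed another order. It read 69.4 and 36.0 FPKM in the mutant and 123 and 45.6 FPKM in wild type, with replicate 1 above replicate 2 in both genotypes. The means were 52.7 ± 23.7 and 84.2 ± 54.7 FPKM (SD, n = 2 each), and the log2 fold change was -0.57 (95% interval -2.34 to 1.19, limma adjusted p = 0.9995). Leaving out wild type replicate 1 turned it to 0.13. The gene overlaps mig-6 on the other strand and txt-5 on its own. ttr-32 (R13A5.3, chromosome III) had a like profile, with 63.5 and 37.4 FPKM in the mutant and 111 and 35.1 FPKM in wild type. Both genes were highest in wild type replicate 1, and the difference between genotypes lay within the replicate gap.

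**Figure D3:**
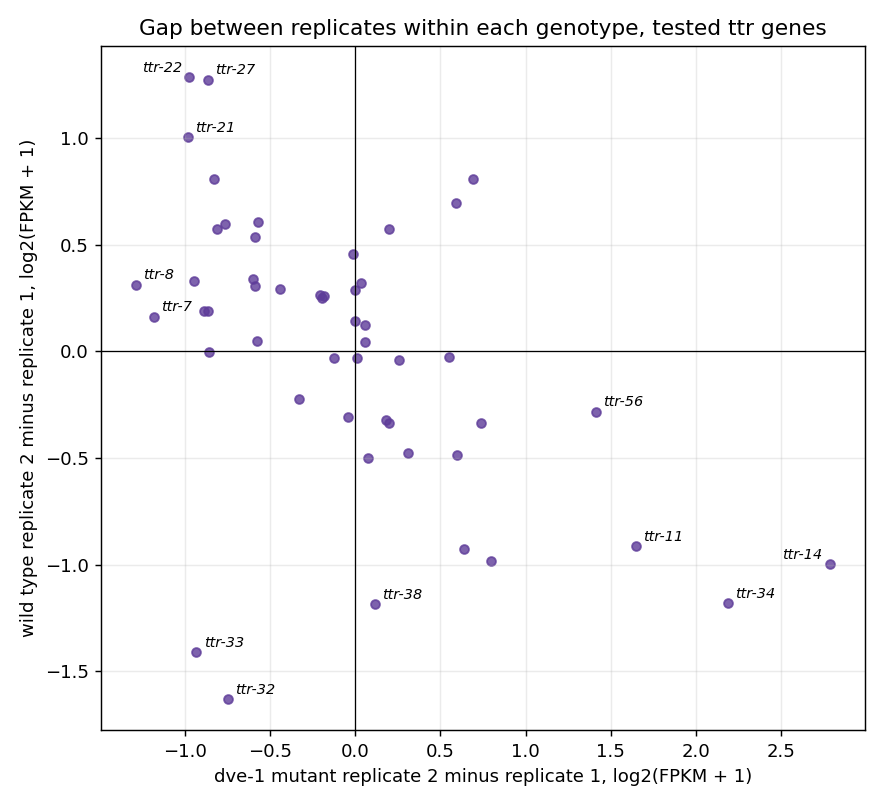
Gap between replicates of each tested ttr gene, replicate 2 minus replicate 1 on the log2(FPKM + 1) scale, for the dve-1 mutant on the horizontal axis and wild type on the vertical axis. Names mark genes with a gap over 1. Most points lie upper left or lower right of the origin, where the gaps of the genotypes have opposite signs (37 of 51 genes), and ttr-14 and ttr-34 lie farthest right.

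Across the family the replicate gaps of the genotypes had opposite signs for 37 of 51 tested members (72.5%), against 67.6% of all genes tested. For 21 members (41.2%) mutant replicate 1 and wild type replicate 2 were the higher ones, against 25.6% of all genes. For 16 members (31.4%) mutant replicate 2 and wild type replicate 1 were higher, against 41.9% of all genes. The 4 most abundant members, ttr-15, ttr-18, ttr-2 and ttr-41, were all in the first set. Mutant replicate 2 was the lowest of the 4 libraries for 20 of 51 members (39.2%), against 27.3% of all genes, and wild type replicate 2 was the highest for 20 of 51 (39.2%), against 17.2% of all genes. The median level over the tested members was 63.5 and 38.2 FPKM in mutant replicates 1 and 2 and 48.6 and 52.4 FPKM in those of wild type.

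Markers of germ cells also differed between replicates. Summed over 23 sperm genes, major sperm proteins, the level was 5953 and 16940 FPKM in mutant replicates 1 and 2 and 14750 and 10120 FPKM in those of wild type, while over 14 oocyte genes it was 331 and 1262 FPKM in the mutant and 550 and 393 FPKM in wild type. No marker of these lists was at 0 in all libraries. Like ttr-14, ttr-34 and ttr-11, both lists were highest in mutant replicate 2 and lowest in mutant replicate 1, and their part in the ttr values was not tested. By sign 22 of 23 sperm genes were lower and 14 of 14 oocyte genes higher in the mutant, with medians of -0.35 and 0.47, and 0 passed. No sperm or oocyte gene was without overlap. The intestine list was higher by sign for 11 of 11 genes with a median of 0.31, the pharynx list for 7 of 9 with 0.15. Both mutant libraries lay above both wild type libraries for 6 of 11 intestine genes and 1 of 9 pharynx genes, against 11.9% of all genes tested. The body wall muscle list was lower for 5 of 8 with a median of -0.08, the neuron list for 9 of 11 with -0.06, and the glia list for 2 of 3 with -0.01. Both mutant libraries lay below for 1 of 8 muscle, 3 of 11 neuron and 1 of 3 glia genes, against 16.2% of all genes. For 1 other glia gene they lay above. No gene of these 5 lists passed.

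**Figure D4:**
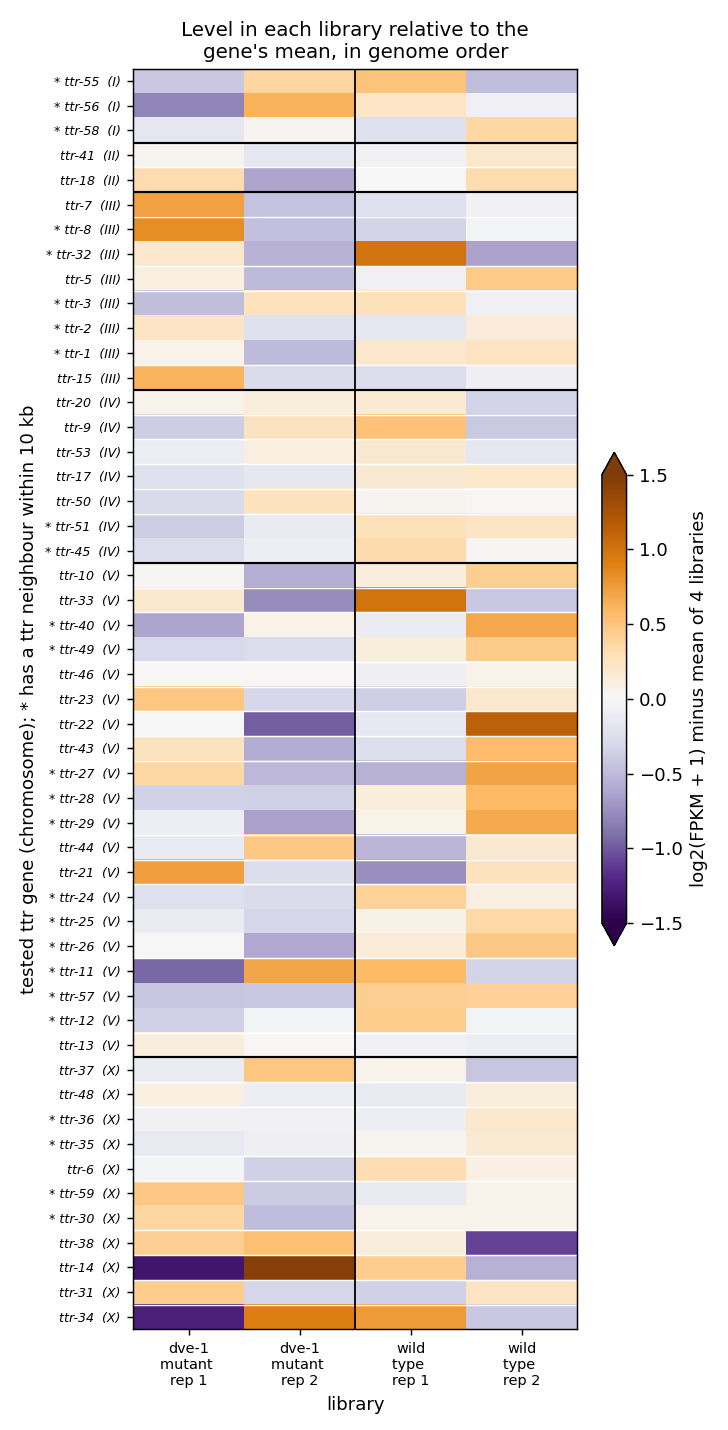
Level of each tested ttr gene in each library relative to its mean over the 4 libraries, in log2(FPKM + 1). Genes are in genome order from chromosome I to X, with black lines between chromosomes. A star marks a gene with another of the 53 members with values within 10 kb. Orange is above and purple below the mean. Neighbours such as ttr-24 to ttr-26 are mostly purple in the mutant columns, and ttr-14 and ttr-34 carry the strongest colours.

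By position, 22 of 25 tested members within 10000 bases of another member were lower by sign in the mutant, against 13 of 26 others. This split counted only the 53 members with values as neighbours. It was made after the values were seen and was not tested, and neighbours may share reads or sequence. By chromosome, 3 of 3 tested members were lower on I, 2 of 2 on II, 4 of 8 on III, 6 of 7 on IV, 15 of 20 on V and 5 of 11 on X. The median log2 fold changes were -0.15, -0.23, -0.10, -0.13, -0.46 and 0.02 in that order. In the cluster of ttr-51 and ttr-45 on chromosome IV both were lower without overlap, ttr-45 reading 103 and 116 FPKM in the mutant and 156 and 125 FPKM in wild type. The 3 members of the cluster on chromosome I were lower by sign, with libraries that overlapped in each.

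TTR-52 acts in the clearance of dying cells with CED-1, and 14 other genes of engulfment were measured, among them genes of the parallel branch that signals through the GTPase CED-10. None passed the threshold (limma). By sign 4 were higher and 10 lower, with a median log2 fold change of -0.06, which was 0.05 without wild type replicate 1. ced-1, the engulfment receptor, read 21.8 and 19.1 FPKM in the mutant and 30.1 and 19.8 FPKM in wild type (log2 fold change -0.25, 95% interval -1.03 to 0.53). psr-1, a phosphatidylserine receptor, read 43.6 and 30.7 FPKM in the mutant and 33.4 and 35.9 FPKM in wild type (log2 fold change 0.08). nrf-5, a secreted lipid-binding protein, read 31.6 and 27.3 FPKM in the mutant and 26.0 and 37.1 FPKM in wild type (log2 fold change -0.08). The ced genes of the parallel branch had log2 fold changes of 0.00 for ced-2, -0.03 for ced-5, -0.01 for the GTPase ced-10 and -0.11 for ced-12. The kinase gene src-1, at 39.7 and 28.0 FPKM in the mutant and 50.4 and 42.1 FPKM in wild type, and the adaptor ced-6, at 32.5 and 31.9 FPKM in the mutant and 37.99 and 32.5 FPKM in wild type, were the genes without overlap, both lower. These are 2 of 14, where 16.2% of all genes tested lay lower without overlap, a share near the background.

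C. elegans also has genes for transthyretin-related proteins of the 5-hydroxyisourate hydrolase type, which do not carry ttr symbols and take part in urate breakdown. Of these, R09H10.3 read 125 and 146 FPKM in the mutant and 124 and 158 FPKM in wild type (log2 fold change -0.04, 95% interval -0.59 to 0.51). ZK697.8 was listed at 0 in both mutant libraries and read 0.26 and 0.25 FPKM in wild type, too low to be tested.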

How the data were processed

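The authors deposited 1 FPKM value per RefSeq transcript accession and library (52491 rows), made with TopHat2 and Cufflinks on ce11, per the submitters' processing notes, with no versions. The header names no unit. Library kit, strandedness and scaling between libraries: not given in the sources used here.

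Accessions were matched to WBcel235 genes, ignoring versions (90.7% matched, holding 75.9% to 77.6% of summed FPKM), and FPKM were summed per gene, so a gene with an unmatched isoform is understated. Gene positions and lengths came from Ensembl release 115, which has ce11 coordinates. An exact 0 can be a failed estimate: 46 genes with a median over 50 FPKM had a 0 in at least 1 library. Depth was estimated from 1632 single-transcript genes, of whose low values 61.6% to 66.1% lay within 0.1 of a whole fragment. Depths 1.96 to 2.00 times as high came next, with 48.0% to 59.8%. Whole fragments at 1 depth are also whole at a multiple, so the lower was used, and fragment numbers are rough estimates.

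limma 3.58.1 (R 4.3.3) with a mean-variance trend tested log2(FPKM + 1), two-sided, over the 14652 genes that reached 1 FPKM in 2 or more libraries, without a block, with Benjamini-Hochberg adjusted p under 0.05 as threshold. The scale understates changes of low genes. The step was tested on simulated data. Python 3.11.15 with pandas 2.3.3 prepared tables.

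Members and lists (engulfment genes, hydrolase type, tissue markers) were chosen with earlier results of these data known. Members named with values were ttr-33, the 10 highest, the 8 with the smallest p and further ones until each direction had 4, the 6 with the largest replicate gap, and those listed at 0 in some libraries. Others named beside them, such as ttr-13, ttr-22, ttr-27, ttr-29 and ttr-45, were chosen after their values were seen. Similarity between members was not analysed here, so the division of fragments among alike members is uncertain. Alternatives were no trend, other scalings, filters and pseudocount, protein-coding genes only, a replicate block and each library left out.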

Additional observations from a re-analysis of the deposited data

How the results depend on the processing

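No ttr member was called in any of the 12 alternatives, where the smallest adjusted p was 0.504 (limma without the trend). That smallest value was for ttr-57, which passed the filter on low values only through the wild type libraries. The median log2 fold change of the members lay between -0.21 and -0.15 under the other alternatives and between -0.24 and -0.13 when 1 library was left out, with 31 to 36 members lower by sign. The number of members at an unadjusted p under 0.05 (limma) was 6 in the main fit. It was 2 without the trend, with median-centred values and with quantile normalization, and 0 with the replicate block. Which 2 members these were varied with the setting. Over all genes the 19 calls became 86 without the trend, 3 with no filter, 7 with a mean of at least 5 FPKM, 10 with a pseudocount of 0.1 and 0 for protein-coding genes alone. They became 0 in each fit that left out 1 library. Deviations of same-numbered libraries correlated at -0.19 across genes, so the libraries were taken to share only a number. The replicate block gave 0 genes, a fit with 1 residual degree of freedom that says nothing about the pairing. Crossing the pairs, a choice made after seeing the data, also gave 0 genes and 0 members. With 1 library left out the engulfment median ran from -0.20 to 0.05. For 11 of 24 named members the sign of the log2 fold change turned in a fit without 1 library, and the ranges over these fits were -1.06 to 0.58 (ttr-11), -1.27 to 1.51 (ttr-14), -0.10 to 0.78 (ttr-15), -0.78 to 0.16 (ttr-18), -0.21 to 0.23 (ttr-2), -0.26 to 0.51 (ttr-31), -1.17 to 0.46 (ttr-32), -1.28 to 0.13 (ttr-33), -1.43 to 0.75 (ttr-34), -0.05 to 0.09 (ttr-46) and -0.86 to 0.55 (ttr-56). In these fits the lone library of a genotype is assumed to vary like the pair of the other. The causes of these changes were not tested.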
